A study of Mus musculus with 8 samples.

Results

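Histones are opened and closed for transcription by enzymes that add or remove acetyl and methyl groups on lysine. In RNA from mouse aorta, 51 genes of such enzyme families were followed, chosen by symbol and not by a shown action on histones. They are all symbols of the count table that begin with Hdac, Sirt, Kat, Kmt, Ezh or Kdm and end in a number with at most 1 letter, 51 of 48587 symbols. By their names they comprise 18 deacetylases (11 Hdac and 7 Sirt genes), 7 acetyltransferases, 8 methyltransferases and 18 demethylases. The low-count filter passed 50 of them. Kdm4d, a histone demethylase, had 0 to 6 counts per library and was not tested. Its 0 counts in WT vehicle 1, WT vehicle 2 and WT VitD 2 allow at most 3 counts, or 0.191, 0.176 and 0.165 CPM (counts scaled to library size).

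Acetylation of histone tails loosens chromatin and is read by bromodomain proteins, while deacetylases reverse it. Class I HDACs are the catalytic cores of nuclear corepressor complexes. Class IIa HDACs shuttle between nucleus and cytoplasm and bind MEF2 transcription factors, which drive muscle genes. Sirtuins need NAD for catalysis. Methylation of histone lysine can mark active or silent genes depending on the residue: the KMT2 enzymes mark promoters and enhancers in use, and EZH1 and EZH2 are the alternative catalytic subunits of Polycomb repressive complex 2 (PRC2). Several of these enzymes, HDAC9 and SIRT1 among them, have been studied in smooth muscle and in vascular calcification.

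The tissue was the whole aortic tree, in 4 groups of 2 libraries: wild-type mice (WT) given vehicle, WT given VitD, mice labelled as having Tet2 deleted in vascular smooth muscle cells given vehicle, and the latter given VitD. The controls are described as litter controls. Strain, age, dose, duration, the Cre driver and the number of mice per library are not stated in the labels, so p-values measure the spread between libraries, which may be technical. Vitamin D in excess is used to make arteries calcify, and TET2 oxidises 5-methylcytosine.

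Each library held 15679274 to 22332149 counts. Tet2 stood at 35.8 and 32.2 CPM (scaled by TMM here and below) in WT vehicle. Vehicle libraries labelled Tet2 knockout held 42 and 35.2 CPM (log2 0.18, SE 0.21, adjusted p = 1 by edgeR). In WT VitD Tet2 had 18.3 and 20 CPM and was called lower than in WT vehicle (log2 -0.83, SE 0.213, edgeR adjusted p = 0.0305). VitD libraries labelled Tet2 knockout held 26.6 and 37.6 CPM (log2 0.74 against WT VitD, SE 0.213, edgeR adjusted p = 0.457). The whole-gene count thus does not bear out the genotype label, and each genotype direction rests on that label. Nor can it refute the label, as it joins all exons and all cells of the tissue, while the labelled deletion is in smooth muscle cells. The library names carry numbers in a lower range for 5 libraries and in a higher range for the other 3, which are both WT VitD libraries and Tet2 knockout VitD 1. The labels do not call these ranges batches. In WT the number range and the treatment cannot be told apart, and Tet2 knockout VitD 2 is the single VitD library of the lower range. Smooth muscle markers were abundant throughout (Acta2, Myh11, Tagln, Cnn1 and Smtn together 14700 to 29100 CPM). Xist was at 0.352 to 1.41 CPM and the Y-linked Kdm5d at 22.3 to 37.4 CPM in all 8 libraries.

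Among the 50 tested members, levels per kilobase of exon ranged from 1.04 to 26.2 CPM per kb as a mean of the 8 libraries. The class I deacetylase Hdac1 (26.2 CPM per kb) led, followed by Kmt5a (20), a methyltransferase that acts on histone H4, and the largely cytoplasmic sirtuin Sirt2 (19.6). Next came the class IIa deacetylase Hdac7 (18.5 CPM per kb) and the acetyltransferase Kat2b (18.4). At the bottom stood Ezh2 (1.24 CPM per kb), Kdm2b (1.15) and the mitochondrial sirtuin Sirt5 (1.04). Ezh1, the PRC2 subunit found in resting tissue, stood at 8.22 CPM per kb. Hdac8, Sirt5 and Kdm8 stayed under 10 CPM in every library.

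Of the 5 methyltransferases called lower in WT, Kmt2a, Kmt2c, Kmt2d and Ezh1 but not Kmt2b are shown by the 250 bases ahead of their start, to let a reader compare the promoters of genes that moved together. The sequences are RefSeq's on GRCm38.p6, 5′ to 3′ on the gene's strand, and each of these 4 genes lies on the minus strand. Capitals mark GGGCGG or its reverse complement CCGCCC, the GC box, with overlapping matches merged.
Kmt2a, chr9:44881290-44881539: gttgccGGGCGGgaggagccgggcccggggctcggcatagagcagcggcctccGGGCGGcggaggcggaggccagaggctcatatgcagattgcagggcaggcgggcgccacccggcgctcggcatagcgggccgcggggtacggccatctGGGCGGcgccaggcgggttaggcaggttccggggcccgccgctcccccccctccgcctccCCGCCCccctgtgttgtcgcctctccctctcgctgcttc
Kmt2c, chr5:25498784-25499033: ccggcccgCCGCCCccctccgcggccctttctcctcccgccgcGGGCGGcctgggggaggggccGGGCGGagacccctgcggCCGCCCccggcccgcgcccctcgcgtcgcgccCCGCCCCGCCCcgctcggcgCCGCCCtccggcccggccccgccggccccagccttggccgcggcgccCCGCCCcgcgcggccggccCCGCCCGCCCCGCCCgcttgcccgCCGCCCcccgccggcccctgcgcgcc
Kmt2d, chr15:98871206-98871455: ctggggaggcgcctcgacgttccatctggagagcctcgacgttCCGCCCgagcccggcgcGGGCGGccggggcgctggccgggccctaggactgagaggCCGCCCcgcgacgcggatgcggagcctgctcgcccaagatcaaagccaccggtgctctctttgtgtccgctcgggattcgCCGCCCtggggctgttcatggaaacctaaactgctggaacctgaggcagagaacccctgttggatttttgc
Ezh1, chr11:101226464-101226713: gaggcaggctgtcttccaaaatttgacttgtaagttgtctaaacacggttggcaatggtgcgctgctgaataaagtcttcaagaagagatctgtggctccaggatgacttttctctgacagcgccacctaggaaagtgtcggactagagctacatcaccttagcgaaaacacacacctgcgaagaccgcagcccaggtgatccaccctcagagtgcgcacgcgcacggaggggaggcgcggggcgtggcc
The GC box occurred 4 times ahead of Kmt2a, 12 times ahead of Kmt2c, 4 times ahead of Kmt2d and 0 times ahead of Ezh1. CG dinucleotides numbered 29, 48, 26 and 14 in the same order, against a median of 6 over 32851 promoter windows and of 17 over the 40 members matched by symbol. A GC box was found in 26 of these 40 members (65%) and in 32.7% of all windows. The box CCAAT, searched on both strands, was found in 21 of 40 members (52.5%) and in 33.8% of all windows. The direct-repeat vitamin D response element occurred in 0 of 40 members and in 13 of 32851 windows (0.0396%). At so rare a share, 0 of 40 tells nothing about these genes. Each member was counted once, by its window with the most matches or CG dinucleotides, while all windows were counted singly. The member and window values are thus not of like units, and their difference was not tested. These are letter matches, not measured binding.

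The response of control mice to the treatment is read from WT VitD against WT vehicle. It was the single comparison in which members passed the test: 11 of 50 were called lower (edgeR quasi-likelihood test, Benjamini-Hochberg adjusted p under 0.05 over 16194 genes) and 0 higher, while 9.47% of all genes were called lower and 10.6% higher. At an unadjusted p under 0.05 there were 24 members, beside 6150 of 16194 genes. DESeq2 called 13 members lower, beside 11.1% of all genes. The log2 fold change was below 0 for 43 of 50 members, with a median of -0.424 beside -0.0282 over all genes. Methyltransferases had more calls than any other class, with 5 of 8 lower, beside 3 of 18 deacetylases, 1 of 7 acetyltransferases and 2 of 17 tested demethylases. Both WT VitD libraries lay below both vehicle libraries in 35 of 50 members, where this held for 35.3% of all genes.

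**Figure D1:**
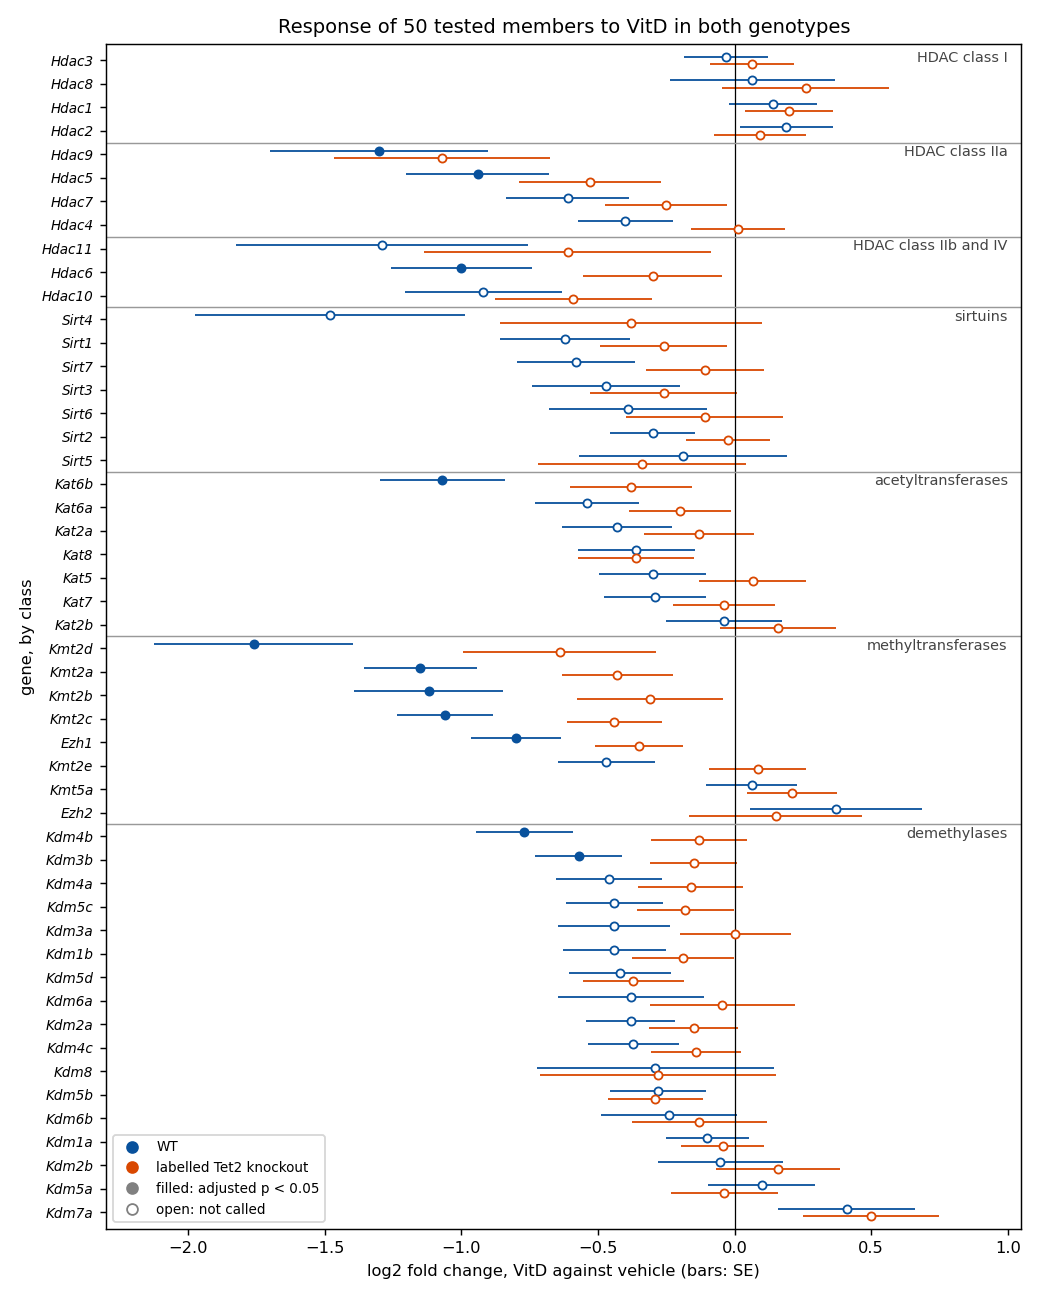
Log2 fold change of VitD against vehicle for each of 50 tested members, by enzyme class, in WT (blue) and in libraries labelled Tet2 knockout (orange). Bars are standard errors and filled points have an adjusted p under 0.05. The 11 filled points are all in WT and all below 0, from -0.57 for Kdm3b to -1.76 for Kmt2d, while class I HDACs lie between -0.032 and 0.26.

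Of the KMT2 family, the 4 large enzymes Kmt2a to Kmt2d fell in WT and Kmt2e did not pass the test. Kmt2d (chromosome 15, 98831669 to 98871204, mm10), an enhancer methyltransferase, stood at 171 and 198 CPM under vehicle and 59.9 and 49 CPM under VitD. With the knockout label it had 169 and 162 CPM under vehicle and at 61.1 and 152 CPM in VitD 1 and 2. It thus lay low in the 3 libraries with higher numbers and high in the other 5. Its WT log2 was -1.76, or 3.39-fold lower (SE 0.364, adjusted p = 0.0173).

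Kmt2c (chromosome 5, 25271798 to 25498783), its partner at enhancers, had 111 and 88.9 CPM in WT vehicle and 48.3 and 47.5 CPM in WT VitD. The libraries labelled Tet2 knockout had 102 and 104 CPM under vehicle and 71.2 and 80.5 CPM under VitD, with the VitD values between those of WT vehicle and WT VitD. Its log2 in WT was -1.06 (SE 0.175, adjusted p = 0.0101), the smallest adjusted p of any member.

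Kmt2a (chromosome 9, 44803355 to 44881296), which keeps developmental genes such as the Hox clusters on, went from 145 and 121 CPM to 63.5 and 56.7 CPM in WT. With the knockout label it had 136 and 138 CPM under vehicle, 84.8 CPM in VitD 1 and 118 CPM in VitD 2. All VitD libraries lay below all vehicle libraries, by less in VitD 2. The WT log2 was -1.15 (SE 0.206, adjusted p = 0.0126). Its close relative Kmt2b (chromosome 7, 30568858 to 30588726) stood at 90.2 and 98.4 CPM in WT vehicle against 44.9 and 41.8 CPM in WT VitD, a log2 of -1.12 (SE 0.272, adjusted p = 0.0256). Libraries labelled Tet2 knockout gave 88.1 and 85.2 CPM under vehicle, 48 CPM in VitD 1 and 92 CPM in VitD 2, which was above its vehicle libraries. Kmt2e, which has a SET domain without known strong methyltransferase activity, had a WT log2 of -0.47 (SE 0.178, adjusted p = 0.0889), and 9.3% of its exonic length overlaps exons of Srpk2 on the opposite strand.

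Of the PRC2 subunits, Ezh1 was called and Ezh2 was not. Ezh1 (chromosome 11, 101191115 to 101226463) stood at 72.1 and 75.6 CPM in WT vehicle and 45.7 and 39.3 CPM in WT VitD, with a log2 of -0.80 (SE 0.163, adjusted p = 0.0167). In libraries labelled Tet2 knockout it had 75.6 and 67.8 CPM under vehicle and 56.8 and 56.1 CPM under VitD. Here both VitD libraries lay together, below vehicle and above the WT VitD libraries. Ezh2, which is typical of dividing cells, was near 10 CPM or less: 9.51 and 6.21 CPM in WT vehicle, 10.6 and 9.74 in WT VitD, 6.14 and 8.21 in Tet2 knockout vehicle, 9.5 and 6.51 in Tet2 knockout VitD. Its WT log2 of 0.37 (SE 0.315, adjusted p = 0.412) did not pass the test and became -0.17 with the number range as a covariate. Kmt5a had a log2 of 0.063. The 12 proliferation markers summed to 59.5 to 97.6 CPM in WT vehicle and 224 to 317 CPM in WT VitD, with 11 of 12 called higher. Their part in the Ezh2 values was not tested.

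**Figure D2:**
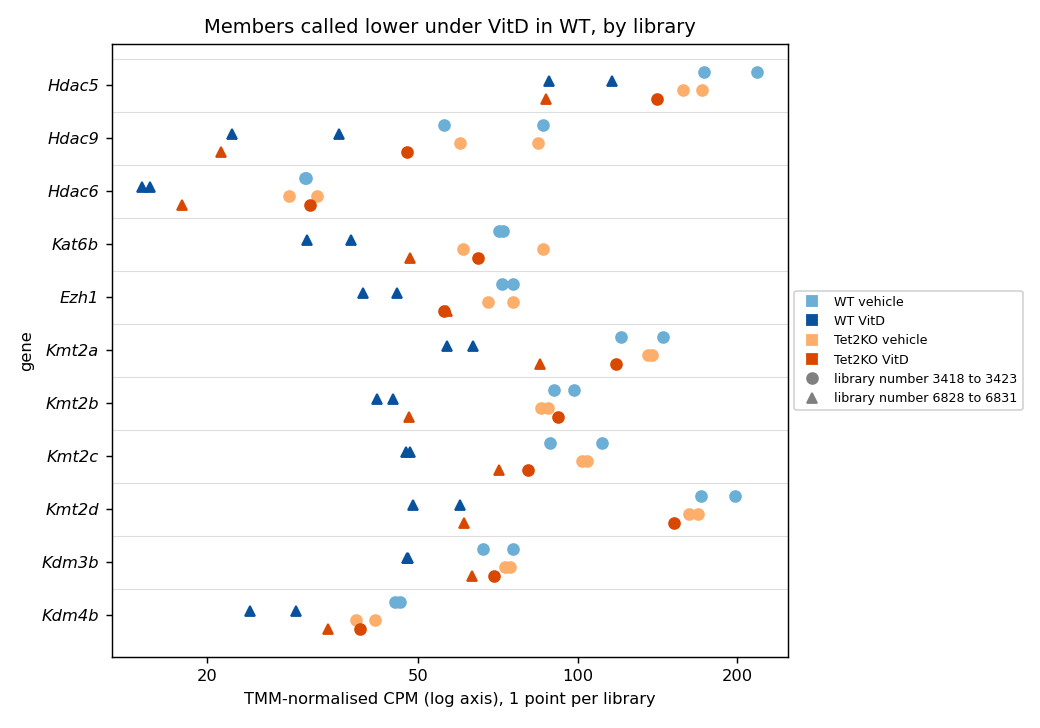
TMM-normalised CPM of the 11 members called lower in WT, 1 point per library on a log axis, coloured by group; triangles are libraries of the higher number range and circles those of the lower. In each gene the WT VitD libraries lie below the WT vehicle libraries, and for Kmt2b, Kmt2d, Hdac5 and Hdac6 the knockout VitD triangle lies near WT VitD and its circle near vehicle.

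Deacetylases are given by class, and no difference between classes was tested. Class I, the corepressor enzymes, had 0 of 4 members called (0 at an unadjusted p under 0.05, 0 by DESeq2) and log2 values from -0.03 to 0.19 in WT. Hdac2, with the smallest p of these, stood at 72.2 and 60.5 CPM under vehicle and 75.3 and 76.2 CPM under VitD in WT (log2 0.19, SE 0.169, adjusted p = 0.431). With the knockout label Hdac2 stood at 65.7 and 70.3 CPM under vehicle and 77.9 and 67.3 CPM under VitD. Class IIa had 2 of 4 called lower, with a median log2 of -0.772, and the list of class IIb and IV had 1 of 3, with a median of -1. Of all genes 9.47% were called lower, and lists this small do not separate their counts from that share. With the number range as a covariate 0 deacetylases were called and the class medians lay close together, at -0.0855 for class I, -0.195 for class IIa and -0.089 for class IIb and IV.

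Hdac5 (chromosome 11, 102194432 to 102230166), a signal-responsive repressor of MEF2, stood at 173 and 218 CPM in WT vehicle and 116 and 88.4 CPM in WT VitD (log2 -0.94, SE 0.262, adjusted p = 0.0384). With the knockout label it stood at 158 and 172 CPM under vehicle, 87.3 CPM in VitD 1 and 141 CPM in VitD 2. Hdac9 (chromosome 12, 34047580 to 34917095), the class IIa member linked to vascular disease in human genetics, varied more between libraries: 86.1 and 56.1 CPM in WT vehicle against 35.4 and 22.3 CPM in WT VitD. In libraries labelled Tet2 knockout it had 60.1 and 84.1 CPM under vehicle and 21.2 and 47.6 CPM under VitD, again without overlap. Its WT log2 of -1.30 (SE 0.399) passed narrowly, with an adjusted p of 0.0498, and no longer did with DESeq2 size factors in edgeR (adjusted p = 0.052).

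Hdac6 (chromosome X, 7930120 to 7947889), a class IIb deacetylase whose main substrate is tubulin, was tightly grouped in WT: 30.8 and 30.6 CPM under vehicle, 15.1 and 15.6 CPM under VitD. In libraries labelled Tet2 knockout it had 32.2 and 28.5 CPM under vehicle, 17.9 CPM in VitD 1 and 31.3 CPM in VitD 2, the latter within the vehicle range. The WT log2 was -1 (SE 0.258, adjusted p = 0.0304). Hdac10 (log2 -0.92, adjusted p = 0.0537), Hdac7 (log2 -0.61, adjusted p = 0.0853), Hdac4 (log2 -0.40, adjusted p = 0.129) and Hdac11, of class IV (log2 -1.29, adjusted p = 0.112), did not pass, and with that covariate Hdac11 stood at 0.10.

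No sirtuin was called in WT: 0 of 7 by edgeR, with 3 at an unadjusted p under 0.05 (6150 of 16194 genes). DESeq2 called Sirt4 (adjusted p = 0.00903). All 7 had a log2 below 0, with a median of -0.466, but in the fit with that covariate 2 of 7 did, and the median was 0.16. Sirt4, a mitochondrial sirtuin, had 21.3 and 21.2 CPM in WT vehicle and 8.94 and 6.28 CPM in WT VitD (log2 -1.48, SE 0.493, adjusted p = 0.0623). In libraries labelled Tet2 knockout it had 18.8 and 13.1 CPM under vehicle, 5.47 CPM in VitD 1 and 18.9 CPM in VitD 2. Sirt4 had a log2 of 0.31 once the number range was a covariate. Sirt1, the nuclear NAD-dependent deacetylase, stood at 36.7 and 24.6 CPM in WT vehicle and 22.6 and 17.3 CPM in WT VitD (log2 -0.62, SE 0.237, adjusted p = 0.092). With the knockout label Sirt1 was at 32.6 and 38 CPM under vehicle and 29.4 and 29.7 CPM under VitD.

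Of 7 acetyltransferases, Kat6b (chromosome 14, 21481434 to 21672478), a MYST-family enzyme with roles in skeletal development, was the single one called. It stood at 72.2 and 71.2 CPM in WT vehicle and 37.4 and 30.9 CPM in WT VitD, a fall of 2.10-fold (log2 -1.07, SE 0.228, adjusted p = 0.0189). In libraries labelled Tet2 knockout it had 86.2 and 60.7 CPM under vehicle and 48.2 and 64.9 CPM under VitD, and these overlapped. Its paralog Kat6a had a WT log2 of -0.54 (SE 0.189, adjusted p = 0.071). The others had log2 values from -0.43 for Kat2a, which stood at 0.036 with that covariate, to -0.039 for Kat2b.

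Of 17 tested demethylases 2 were called lower, a share of 11.8% near that of all genes, and their median log2 was -0.376. Kdm4b (chromosome 17, 56326062 to 56402870), which removes repressive methylation, had 45.2 and 46.2 CPM in WT vehicle and 29.4 and 24.1 CPM in WT VitD (log2 -0.77, SE 0.177, adjusted p = 0.0222). With the knockout label it had 41.5 and 38.2 CPM under vehicle and 33.8 and 38.8 CPM under VitD. Kdm3b (chromosome 18, 34777047 to 34838660), a JmjC-domain demethylase, went in WT from 75.5 and 66.4 CPM under vehicle to 47.7 and 47.9 CPM under VitD (log2 -0.57, SE 0.159, adjusted p = 0.0384), and had 74.6, 72.9, 63.2 and 69.6 CPM with the knockout label, vehicle before VitD. Of its exonic length, 24.6% overlaps the opposite-strand gene Gm26538, and the strand setting of the counting is not given.

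Kdm6b, an inducible demethylase of the Polycomb mark in macrophages and other cells, had 40.4 and 56 CPM in WT vehicle, 41.6 and 39.8 in WT VitD, 62.6 and 42.5 in Tet2 knockout vehicle and 41.4 and 54.6 in Tet2 knockout VitD (WT log2 -0.24, SE 0.248, adjusted p = 0.496). The 6 macrophage markers beside it summed to 362 to 376 CPM in WT vehicle and 1630 to 2070 CPM in WT VitD, all 6 called higher. Their part in the Kdm6b value was not tested. Kdm6a, its X-linked relative, had 37.2 CPM in WT vehicle 1 but 21.1 CPM in WT vehicle 2, 21 and 23.8 CPM in WT VitD, 33 and 29.1 CPM in Tet2 knockout vehicle and 33.2 and 27 CPM in Tet2 knockout VitD. Its WT log2 of -0.38 (adjusted p = 0.327) became 0.094 without WT vehicle 1. The Y-linked Kdm5d and its X-linked homolog Kdm5c had WT log2 values of -0.42 (adjusted p = 0.133) and -0.44 (adjusted p = 0.107). Kdm5c stood at 75.2 and 84.8 CPM in WT vehicle, 56.1 and 61.9 in WT VitD, 67.7 and 80.5 in Tet2 knockout vehicle and 60 and 71.1 in Tet2 knockout VitD. Kdm5d stood, in the same order, at 35.1 and 28.8, 25.5 and 22.3, 37.4 and 37, and 26.5 and 31.1 CPM. Kdm7a had the highest log2 among members, 0.41 (SE 0.25, adjusted p = 0.261). Once the number range was a covariate it stood at -0.081.

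The 11 calls in WT did not hold once the number range entered as a covariate, where 0 members were called, with 0.358% of all genes called. All 11 log2 values stayed below 0 in that fit, but by very different amounts. Those of Ezh1 (-0.81), Kmt2c (-0.89), Kdm4b (-0.57) and Kdm3b (-0.43) stayed near their values without the covariate. Kmt2a (-0.67) and Kat6b (-0.64) came in between. Kmt2d (-0.45), Hdac5 (-0.25), Hdac6 (-0.20), Kmt2b (-0.18) and Hdac9 (-0.14) shrank most. In that fit the size of the range term comes from the difference between Tet2 knockout VitD 1 and VitD 2. Of all 50 tested members, 17 had another sign in that fit, among them 5 of 7 sirtuins and 3 of 4 class I HDACs. Leaving out a WT library lowered the calls among members and among all genes alike. Leaving out a VitD library labelled Tet2 knockout raised both. Without WT vehicle 1, 0 members were called lower (0.182% of all genes), and without WT vehicle 2, 2 were (Kmt2a and Kmt2c, beside 1.34%). Without WT VitD 1, 0 were called lower (1.4% of all genes), and without WT VitD 2, 0 (0.0177%). Without Tet2 knockout vehicle 1 or 2, 7 were called lower each time, beside 5.01% and 5.14% of all genes.

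**Figure D3:**
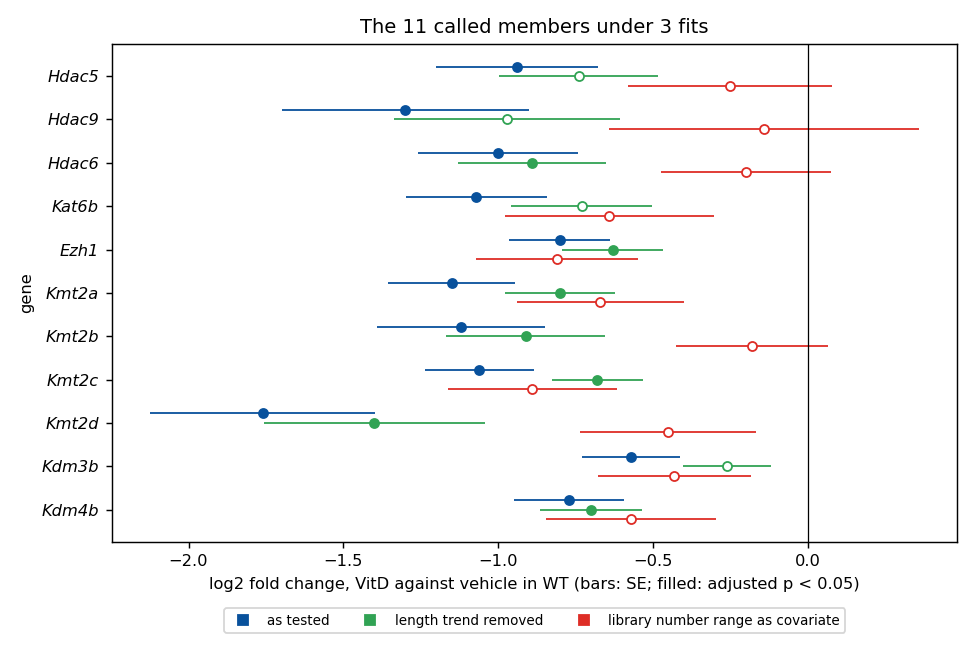
Log2 fold change of VitD against vehicle in WT for the 11 called members, as tested (blue), after removal of each library's trend with exonic length (green) and with number range as a covariate (red). Bars are standard errors and filled points have an adjusted p under 0.05; Ezh1 and Kmt2c keep similar values in red, while Kmt2b, Hdac6 and Hdac9 lie near 0.

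Exonic length, which joins all annotated exons of a gene, went with the response over all genes, and less clearly among members. The members' median log2 was -0.394 at 2 to 4 kb (9 members), -0.338 at 4 to 8 kb (22) and -0.472 above 8 kb (19). Over all tested genes it was 0.109, -0.11 and -0.267 in the same classes. The called members included 8 of the 19 tested members with over 8 kb of exon, and Kmt2c (20291 bases) and Kmt2d (19931 bases) were the longest. Over all tested genes above 8 kb the median log2 in WT was -0.267 and 15.8% were called lower, against 0.302 and 5.51% under 2 kb. Across the 50 members, which share the same libraries, Spearman's rho of log2 with exonic length was -0.248, beside -0.189 over 15702 genes. With the trend with length removed from each library, 8 members were called lower (7.69% of all genes), and 7 of the 11 kept the call: Kmt2a (log2 -0.80), Kmt2b (-0.91), Kmt2c (-0.68), Kmt2d (-1.40), Ezh1 (-0.63), Hdac6 (-0.89) and Kdm4b (-0.70). Hdac5 (adjusted p = 0.0768), Hdac9 (0.0955), Kat6b (0.0584) and Kdm3b (0.221) lost it. With GC content removed too, 8 members were called lower beside 9% of all genes.

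**Figure D4:**
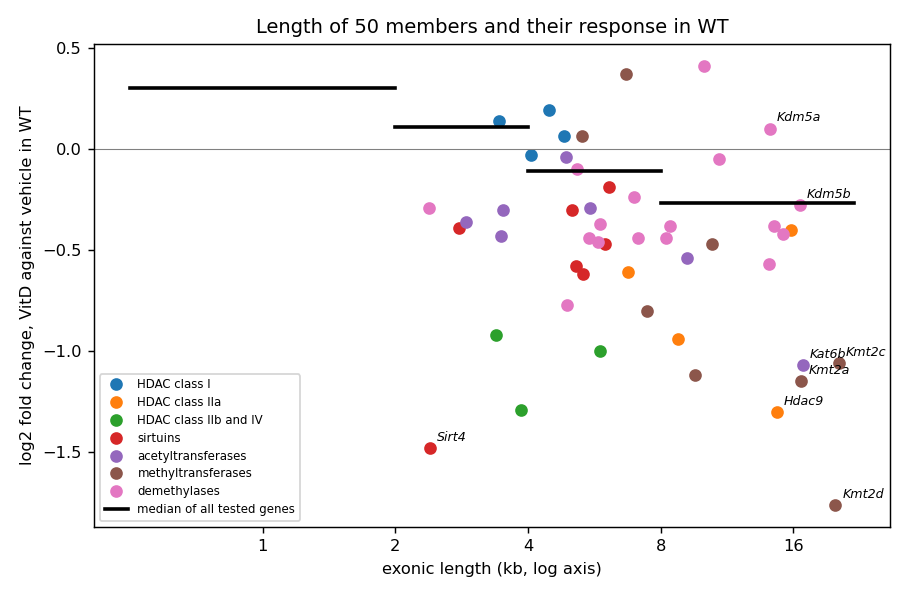
Exonic length (kb, log axis) against the log2 fold change of VitD against vehicle in WT for 50 members, coloured by class, with the median of all tested genes in 4 length classes as black lines. The black lines go from 0.302 under 2 kb to -0.267 above 8 kb, and Kmt2a, Kmt2c, Kmt2d, Hdac9 and Kat6b lie well below the line of their length class.

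Genes that act with these enzymes were read from lists outside the symbol rule, against the 9.47% of all genes called lower and 10.6% called higher in WT. Among HDAC corepressor subunits 1 of 24 was called lower (4.17%), Gps2, a subunit of the NCoR complex (log2 -0.59, SE 0.17, adjusted p = 0.042), with a list median of -0.0454. The PRC2 partners had 1 of 9 called lower (11.1%, near the share of all genes), Phf1, which guides PRC2 to chromatin (log2 -1.40, SE 0.293, adjusted p = 0.0178), and a median of -0.107. Of the COMPASS subunits that hold the KMT2 enzymes 0 of 9 were called by edgeR. At an unadjusted p under 0.05 there were 3, beside 6150 of 16194 genes. The smallest p values there were those of Ncoa6 (log2 -0.54, adjusted p = 0.109) and Paxip1 (log2 -0.42, adjusted p = 0.111), which bind the Kmt2c and Kmt2d complexes.

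Of 7 acetyltransferases outside the rule, 4 were called lower (57.1%): Crebbp (log2 -0.77), Ep300 (log2 -0.57), Ncoa3 (log2 -0.86) and Ncoa2 (log2 -0.58). Crebbp stood at 83 and 73.7 CPM in WT vehicle and 46.3 and 45.6 CPM in WT VitD. Bromodomain readers had 3 of 9 called lower (33.3%), Brd8 (log2 -0.68), Brpf3 (log2 -0.78) and Brd9 (log2 -0.68). The MEF2 factors bound by class IIa HDACs had 2 of 3 tested called lower, Mef2c (log2 -1.09, SE 0.261, adjusted p = 0.0249) and Mef2d (log2 -0.96, SE 0.234, adjusted p = 0.0259). Of 20 other methyltransferases 3 were called lower (15%) and 1 higher (5%). Setdb1, which silences retroelements, had a log2 of -0.94, Setd1b -0.98 and Setd7 -0.70, while Setdb2 rose from 5.16 and 3.7 CPM to 9.53 and 9.28 CPM (log2 1.09, SE 0.294, adjusted p = 0.035). Other demethylases had 2 of 6 called lower, Phf2 (log2 -1.05) and Hr (log2 -0.99).

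Genes that supply or consume the enzymes' cofactors went both ways, with 3 of 14 called higher (21.4%) and 1 lower (7.14%). Cd38, an ecto-enzyme of immune and other cells that consumes NAD, rose in WT from 4.97 and 4.67 CPM to 40.2 and 56.7 CPM (log2 3.33, SE 0.465, adjusted p = 0.00614). Nnmt, which methylates nicotinamide at the cost of the methyl donor, rose from 31.8 and 26.2 CPM to 64.8 and 84.4 CPM (log2 1.36, SE 0.202, adjusted p = 0.0071). The isocitrate dehydrogenase Idh1, which supplies NADPH and 2-oxoglutarate in the cytosol, had a log2 of 0.80 (adjusted p = 0.0369). Mat2a, which makes the methyl donor S-adenosylmethionine, fell from 300 and 272 CPM to 168 and 158 CPM (log2 -0.81, SE 0.232, adjusted p = 0.041). With the number range as a covariate none of the named partner or cofactor genes was called, and the log2 of Cd38 was 1.82 (adjusted p = 0.119). In the other 4 contrasts 0 genes of these partner and cofactor lists were called by edgeR, although DESeq2 called Cd38 for VitD in the libraries labelled Tet2 knockout.

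The same question was put to the other genotype. Among libraries labelled Tet2 knockout, 0 of 50 members were called by edgeR and 0 by DESeq2, and edgeR called 0.198% of all genes. At an unadjusted p under 0.05 there were 2 members, beside 2148 of 16194 genes. The median log2 of members was -0.149, beside -0.00512 over all genes. Both VitD libraries lay below both vehicle libraries in 16 of 50 members, beside 22.2% of all genes. Hdac9 (log2 -1.07, SE 0.396, adjusted p = 0.309) and Kmt2c (log2 -0.44, SE 0.173, adjusted p = 0.335) had the smallest p values. Of the 11 members called in WT, VitD 1 lay below both vehicle libraries in 11 and VitD 2 in 7. No share over all genes was computed for a single library, so nothing is concluded from these counts.

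These 2 VitD libraries stood apart from each other. Without VitD 2, 7 members were called lower (5.15% of all genes): Kmt2d (log2 -1.44, adjusted p = 0.0076), Kmt2b (-0.85, 0.0238), Hdac9 (-1.77, 0.0254), Sirt4 (-1.54, 0.0268), Hdac10 (-1.07, 0.036), Hdac5 (-0.92, 0.0465) and Hdac6 (-0.76, 0.0471). Without VitD 1, 0 were called, and Kmt2d stood at -0.12 (adjusted p = 0.985), Kmt2b at 0.10 and Hdac6 at 0.053. Each of these fits has a single VitD library, whose spread is taken from the other groups. The values without VitD 1 are those within the lower number range. Ezh1 had a log2 of -0.34 without VitD 1 and -0.34 without VitD 2, and Kmt2c -0.34 and -0.53.

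**Figure D5:**
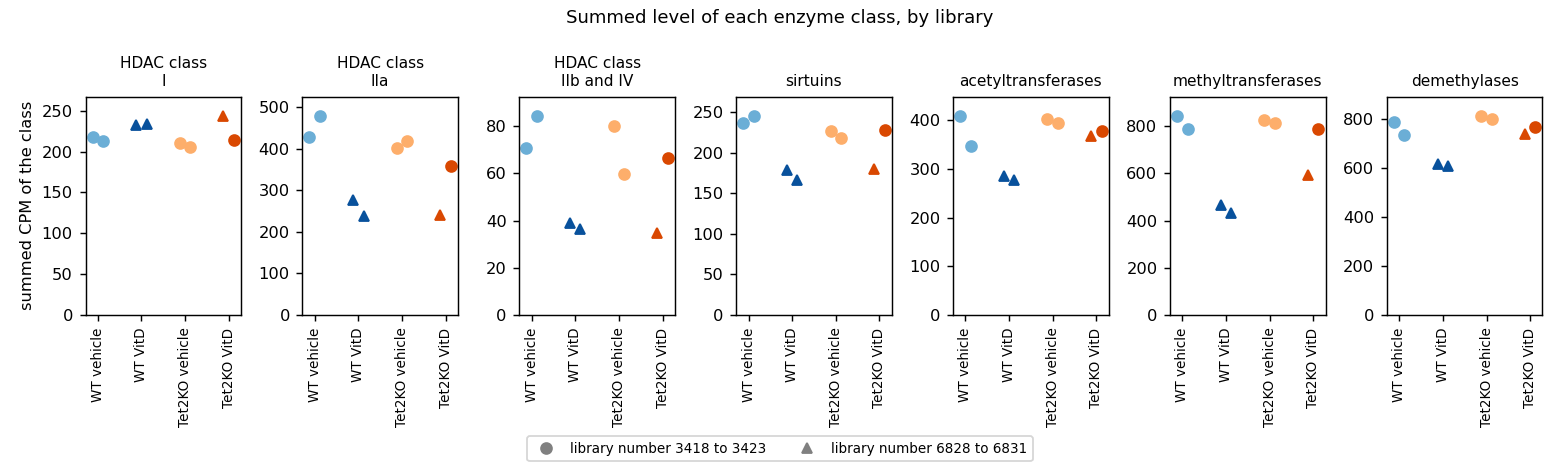
Summed CPM of each enzyme class in each library, by group, on axes that start at 0; triangles are libraries of the higher number range. Methyltransferases summed to 790 to 841 CPM in WT vehicle and 434 to 466 CPM in WT VitD, with 592 and 789 CPM in the VitD libraries labelled Tet2 knockout, while class I HDACs summed to 206 to 243 CPM in all 8 libraries.

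Summed over members, methyltransferases stood at 841 and 790 CPM in WT vehicle, 466 and 434 in WT VitD, 824 and 813 in Tet2 knockout vehicle and 592 and 789 in Tet2 knockout VitD. Class IIa HDACs stood at 428 and 478, 276 and 238, 402 and 418, and 240 and 358 CPM in the same order. Demethylases stood at 788 and 736, 618 and 610, 812 and 800, and 739 and 768 CPM. The summed smooth muscle markers were also lower under VitD in WT, at 28300 and 29100 CPM in WT vehicle and 21900 and 14700 in WT VitD. They summed to 29000 and 27000 CPM in Tet2 knockout vehicle and 19700 and 27300 in Tet2 knockout VitD. Knockout VitD 1 lay below WT VitD 1 in these markers and in the class IIa sum, but above it in the methyltransferase and demethylase sums. Singly, 2 of the 5 smooth muscle markers were called lower in WT, with log2 values from -1.84 to 0.04. Macrophage markers moved the other way and were higher in knockout VitD 1 (1810 CPM) than in VitD 2 (987 CPM). The 5 skeletal muscle markers summed to 76.6 and 345 CPM in WT VitD and to 10.6 to 23.9 CPM in the other 6 libraries. T cell and thymocyte markers reached 90.7 CPM in WT vehicle 1 and lay at 2.86 to 27.9 CPM elsewhere. Endothelial markers reached 4020 CPM in knockout VitD 1. Adipocyte markers summed to 243 CPM in knockout VitD 1 and to 718 to 1180 CPM elsewhere. Cytosolic ribosomal protein genes took 5.15% and 5.23% of counts in WT VitD and 4.58% in knockout VitD 1, the 3 libraries with higher numbers, and 1.99% to 2.45% in the other 5. The part of cell composition and of this ribosomal share in the members' values was not tested, and in bulk tissue fewer cells of a type and less RNA per cell cannot be told apart.

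Tet2 knockout against WT under vehicle showed 0 of 50 members called by edgeR and 0 by DESeq2, with 0% of all genes called by edgeR. At an unadjusted p under 0.05 there were 0 members, beside 481 of 16194 genes. The members' log2 values ran from -0.41 to 0.30 with a median near 0 (-0.000374). Kdm5b, a demethylase of promoter marks, had the smallest p (log2 0.29, SE 0.174, adjusted p = 1). All 4 vehicle libraries lie in the lower number range, so this comparison does not cross the ranges.

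Under VitD, Tet2 knockout against WT gave 0 of 50 members called by edgeR and 0 by DESeq2, with 0% of all genes called by edgeR. At an unadjusted p under 0.05 there were 15 members, beside 1719 of 16194 genes. The log2 was above 0 in 45 of 50, with a median of 0.265 beside 0.0281 over all genes. Both knockout libraries lay above both WT libraries in 28 members, beside 22.2% of all genes. Without knockout VitD 2 the members' median was 0.145, and 15 of 50 lay below 0, among them 10 of 18 deacetylases. With the trend with length removed the median was 0.152. As tested, Kmt2e had the smallest p (log2 0.76, SE 0.179, adjusted p = 0.457). It stood at 89 and 89.9 CPM in WT VitD and 148 and 156 CPM in Tet2 knockout VitD. Next came Kmt2c (log2 0.66, SE 0.175, adjusted p = 0.457) and Kmt2a (log2 0.75, SE 0.204, adjusted p = 0.457). Without knockout VitD 1, 5 members were called higher (2.17% of all genes): Kmt2d (log2 1.46, adjusted p = 0.0212), Kmt2b (1.07, 0.0268), Hdac6 (1.01, 0.0341), Kmt2a (0.96, 0.0393) and Sirt4 (1.30, 0.0499). Without knockout VitD 2, which leaves libraries of the higher number range only, 0 were called and Kmt2d stood at 0.16, Kmt2b at 0.15, Kmt2a at 0.49, Kmt2c at 0.57 and Kmt2e at 0.73.

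The interaction asks whether the response to VitD differs between genotypes. No member passed: 0 of 50 by edgeR and 0 by DESeq2, with 0% of all genes called by edgeR. At an unadjusted p under 0.05 there were 3 members, beside 1006 of 16194 genes. These 3 were Kdm4b (log2 difference 0.64, SE 0.248), Kmt2c (0.63, SE 0.245) and Kmt2a (0.71, SE 0.287), each with an adjusted p of 0.794. A difference in response was thus not shown for any member, although 11 passed the test in WT and 0 in the libraries labelled Tet2 knockout. This comparison and that under VitD use the same WT VitD libraries as the WT response and are not independent of it.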

How the data were processed

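RNA of 8 aorta libraries was sequenced from poly-A enriched, stranded libraries, per the labels' protocols. The authors deposited whole-number counts by symbol, not normalised. The submitters' processing notes name mm10, Trimmomatic 0.39, STAR 2.7.8a and featureCounts 2.0.2. Annotation release, strand setting and handling of multi-mapping reads: not given in the sources used here. Counts were analysed with edgeR 4.0.16 (R 4.3.3): TMM normalisation, the filterByExpr filter (16194 of 48587 symbols kept), 1 mean per group over all 8 libraries, no covariates and 4 residual degrees of freedom. Benjamini-Hochberg adjustment ran over all genes within each of 5 contrasts, with a threshold of 0.05. SE came from the fold change and F statistic. CPM is TMM-normalised. Coordinates and exonic lengths are from GENCODE M21 (mm10), with 46384 symbols (95.5%) matched to 1 gene.

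Members and lists were chosen with earlier results of these data known. Values in every library are given for called members, for Ezh1, Ezh2, Hdac9, Kdm6b, Sirt1, Kdm5c, Kdm5d and Kdm6a, and for the member with the smallest p of a class with no call. From each partner list come up to 4 called genes, or 2 where none was called. Kmt2e, Kdm7a, Kdm5b and other members named with a log2 only were chosen after their values were seen. Alternatives were DESeq2 size factors, DESeq2 1.42.0, no filter, a replicate block, the number range as a covariate, only the groups compared and leaving out each library. Removal of trends with length or GC (loess, span 0.3) was added after seeing the data. The code was tested on simulated counts of the same 8 libraries, with 98 genes changed by a log2 of 1 and 98 by 2 in WT VitD. It called 24.5% of the former and 80.6% of the latter, with 2 false calls. A count of 0 called members thus does not show that none changed.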

Additional observations from a re-analysis of the deposited data

How the results depend on the processing

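The count of 11 members called in WT was 0 once the number range of the libraries was a covariate and 0 to 15 when a library was left out. All 11 kept their direction under every alternative run. The count was 10 with DESeq2 size factors in edgeR (9% of all genes called lower) and 13 in DESeq2 (11.1%). It was 13 without a filter (8.22%) and 16 with only the WT groups fitted (14.5%), beside 9.47% as reported. VitD in the libraries labelled Tet2 knockout had 0 members called, 1 without a filter (Hdac9), and 0 to 7 when a library was left out. Genotype under VitD had 0 called, and 1 without a filter (Kmt2d, beside 2.18% of all genes called in either direction). The count rose without knockout VitD 1. Genotype under vehicle and the interaction had 0 called under every alternative run. With a replicate block 8 members were called in WT (6.89% of all genes called lower), Hdac5, Hdac9 and Kdm3b losing the call, and 0 in the other contrasts. The labels give only numbers, and same-numbered libraries correlated by -0.115 to 0.138 across groups, so the numbers are not taken as pairs. With the number range as a covariate 17 of 50 members turned direction, none of them called: 5 sirtuins, 3 class I HDACs, Hdac11, Kat2a, Ezh2 and 6 demethylases. Among members described by library, these and other turns were Ezh2 (-0.17), Hdac2 (-0.02), Kdm6b (0.16) and Sirt4 (0.31) with the number range as a covariate, Kdm6a (0.094) without WT vehicle 1 but -0.73 without WT vehicle 2, and Kdm6b without WT vehicle 2 (0.013, against -0.45 without WT vehicle 1) or with length and GC trends removed (0.14), all as log2. The cause was not tested. Groups of 2 libraries limit the precision, and at 0 to 6 counts Kdm4d could not be compared.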
